A study of Drosophila melanogaster with 2 samples.

Results

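The translation initiation factor genes are the 44 protein-coding genes of Drosophila melanogaster whose symbol starts with eIF, of the 13945 that Ensembl release 115 places on the X, chromosome 4 and the arms 2L, 2R, 3L and 3R. Their promoters were examined in ChIP-seq of woc (without children), a zinc finger protein, recorded in whole wandering larvae of the third instar. The larvae, of both sexes pooled, came from 1 transgenic line that stably expresses woc with GFP at its C terminus, and an antibody against GFP recovered the DNA. The 2 libraries, biological replicates 1 and 3, form 1 group; no second genotype, stage or treatment was compared. The promoter that drives the fusion is not given in the sources used here. In chromatin of whole animals, strong occupancy in few cells and weak occupancy in many cannot be told apart.

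Initiation factors bring the initiator tRNA, the small ribosomal subunit and the capped mRNA together before the large subunit joins. The cap is bound by eIF4E, which eIF4G links to the helicase eIF4A and to eIF3 on the small subunit; eIF2 carries the initiator tRNA and is recharged by its exchange factor eIF2B. In larvae these factors serve the rapid growth that precedes metamorphosis. The protein woc is known as a partner of the heterochromatin protein HP1c and of row at active promoters, and as a gene needed for ecdysteroid synthesis and for telomere capping.

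A gene was called bound where the summit of a peak in the authors' optimal list, kept after their reproducibility step, lay within 500 bp of a transcription start site (TSS) of the gene. Its signal is the authors' own value for the peak in the list pooled from both libraries, on a scale that is not stated. It ran from 99.6 to 2866 over the 6614 optimal peaks on the arms, with a median of 183. A relaxed pooled list of 29999 peaks, which holds background as well, showed weaker peaks.

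Of the 44 eIF genes, 12 were bound, which is 27.3% with an exact (Clopper-Pearson) 95% binomial interval of 15% to 42.8%. Over all 13945 protein-coding genes the share was 21.9%, inside that interval, so the count alone does not set the eIF genes apart. A further 5 eIF genes had a peak in the relaxed pooled list only, and 27 had none there within 500 bp. With both lists together, 17 of 44 eIF genes (38.6%) had a peak, against 38.5% of all genes. The median signal of the 12 bound eIF genes was 234, with quartiles of 132 and 448, and that of all 3058 bound genes was 238, with quartiles of 157 and 386. Within the family the signals ran widely: eIF6, eIF4EHP, eIF3c and eIF3m stood among the 765 highest of the 3058 bound genes, while eIF4A and eIF4B ranked 2818 and 2824.

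**Figure D1:**
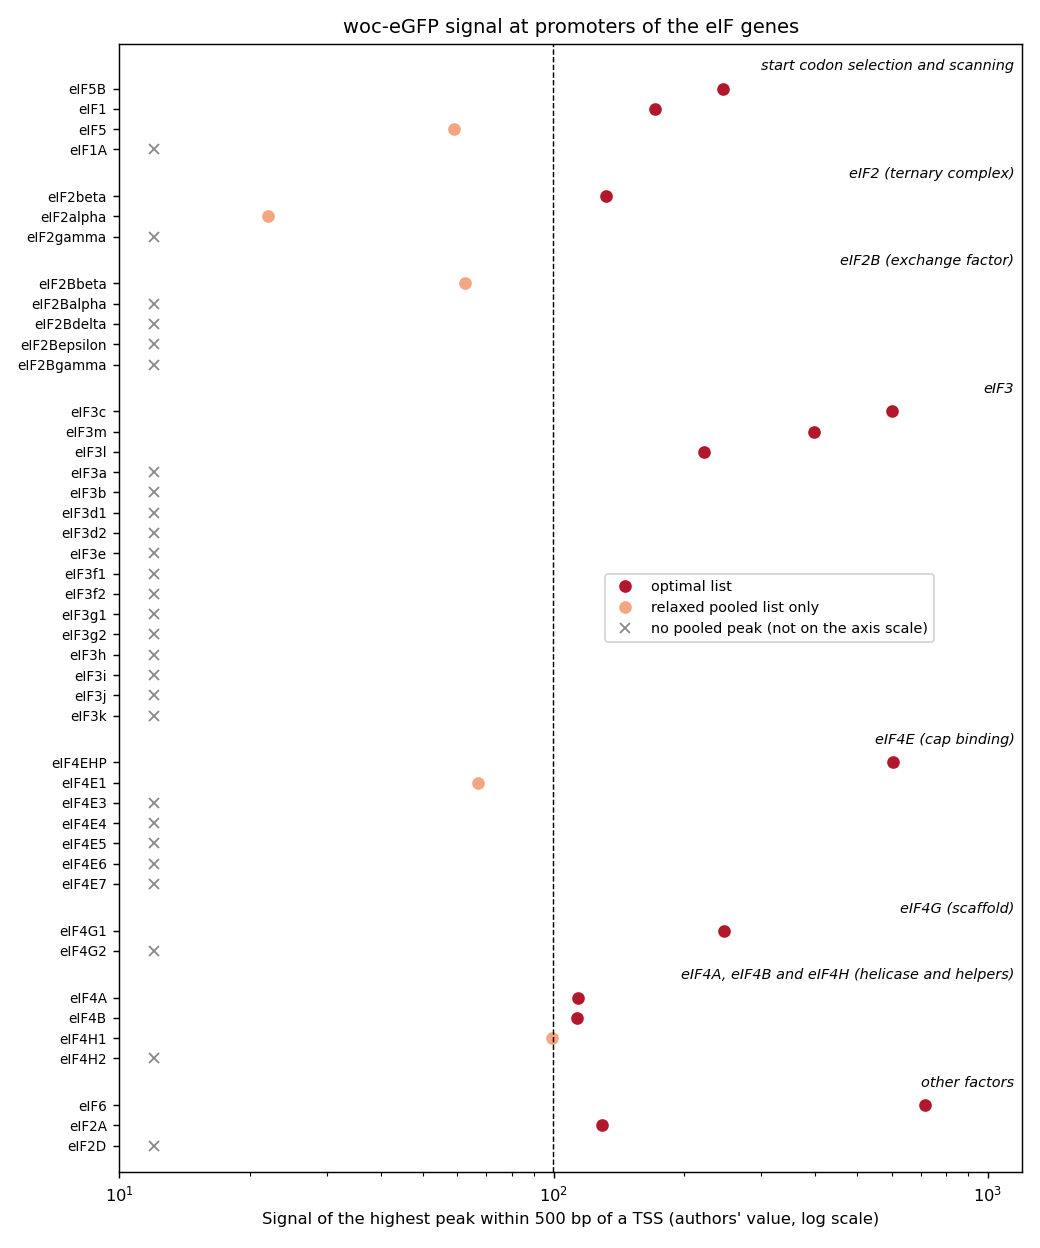
Signal of the highest pooled peak within 500 bp of a TSS for each of the 44 eIF genes, by factor group, on a log axis; the dashed line is the lowest optimal signal of 99.6, and crosses mark genes with no pooled peak, set at the left edge without a value. The 12 bound genes lie between 113 and 715 and are spread over all groups but eIF2B.

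The factors that meet the capped end of the mRNA held a strongly bound promoter at eIF4EHP. eIF4EHP binds the cap but not eIF4G and represses the translation of chosen mRNAs, such as caudal in the early embryo. Its promoter had a signal of 605, rank 292 among the 3058 bound genes, with the summit at position 24109050 of 3R, in intergenic sequence 90 bp upstream of its TSS. The libraries' own lists gave 204 in replicate 1 and 394 in replicate 3. A second optimal summit of signal 341 lay 306 bp upstream, toward the divergently transcribed CG18428, whose own TSS was 286 bp from the main summit. Inside the eIF4EHP gene, whose span holds a TSS of Syx1A, 3 further optimal summits had signals of 218, 106 and 174; the nearest TSS to each of them was that of Syx1A.

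The main cap-binding protein, eIF4E1, was not bound. Its relaxed pooled peak had a signal of 66.9, with the summit 1 bp upstream of its TSS, and only replicate 3 listed a peak there, of 50.5. The optimal peak nearest to eIF4E1, of signal 100.1, was 2416 bp away. The further eIF4E genes, eIF4E3, eIF4E4, eIF4E5, eIF4E6 and eIF4E7, had no pooled peak within 500 bp. eIF4E3 is known for its part in sperm formation. The cap-binding group thus had 1 bound gene of 7, or 14.3% (exact 95% interval 0.361% to 57.9%), an interval that holds the 21.9% of all genes given above.

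The scaffold eIF4G1 was bound with a signal of 246, rank 1484, and its summit at position 930748 of chromosome 4 lay 33 bp upstream of its single TSS. It was the only bound eIF gene with a lower value in replicate 3 (123) than in replicate 1 (126), a ratio of 0.981. No TSS of another protein-coding gene lay within 1000 bp. A second summit of signal 132 stood 234 bp upstream of its TSS. On chromosome 4, the small mostly heterochromatic chromosome, 45 of 80 protein-coding genes (56.2%) were bound, and eIF4G1 was the only eIF gene there. Its paralogue eIF4G2, which is needed for spermatogenesis, shares a TSS with CG33111 and had no pooled peak; the nearest optimal summit was 30154 bp away.

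The promoters of eIF4EHP and eIF4G1, and that of the start codon factor eIF1 described below, are shown as examples of bound promoters that hold the summit within 100 bp before the TSS and have no match to the DNA replication-related element or the motif 1 core discussed further on. Of the other bound eIF genes with such a summit, eIF3c, eIF6 and eIF4B hold the DNA replication-related element and eIF5B the motif 1 core, and eIF3m holds neither. The sequences are the 100 bases before the TSS in dm6 (RefSeq), on the gene's strand, and the capitals mark the summit base with the 4 bases on either side.
eIF4EHP (chr3R:24108961-24109060, minus strand): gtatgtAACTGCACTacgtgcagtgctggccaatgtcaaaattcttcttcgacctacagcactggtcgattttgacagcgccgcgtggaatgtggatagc
eIF4G1 (chr4:930716-930815, minus strand): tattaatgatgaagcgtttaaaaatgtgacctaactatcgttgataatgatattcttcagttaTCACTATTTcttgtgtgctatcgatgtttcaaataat
eIF1 (chr3L:3223241-3223340, plus strand): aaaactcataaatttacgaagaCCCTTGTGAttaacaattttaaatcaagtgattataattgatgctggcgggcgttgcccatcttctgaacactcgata

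The helicase eIF4A, which unwinds the mRNA's 5′ end, was bound weakly and at a distance. Its summit, at position 5981297 of 2L with a signal of 114, lay 467 bp upstream of its TSS and only 279 bp from that of the divergent gene chic (profilin). A separate optimal peak of signal 203 lay 677 bp from eIF4A, further toward chic. Library peaks with a summit within 100 bp of the eIF4A summit had signals of 35.1 in replicate 1 and 73.1 in replicate 3. The largest overlapping peaks, of 69.8 and 135, had summits 213 and 199 bp away, near the separate peak.

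eIF4B, which stimulates the helicase, had the lowest signal of the bound eIF genes, 113, at position 27858315 of 3L and 44 bp upstream of its TSS. Its libraries gave 38.6 in replicate 1 and 70 in replicate 3. eIF4H1, of the related helper eIF4H, fell just outside the optimal list with 98.9 against the lowest optimal signal of 99.6. Its summit was 60 bp downstream of its TSS, and it had 40 in replicate 1 and 50.9 in replicate 3. These 3 genes stand on both sides of the authors' threshold with little between them. The paralogue eIF4H2 had no pooled peak.

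Of the genes for start codon selection and subunit joining, eIF5B and eIF1 were bound. eIF5B, the GTPase that joins the large subunit, had a signal of 245 at position 3460605 of 3L, 2 bp upstream of its nearest TSS and within the 5′ untranslated region of its longer transcript. Replicate 1 gave 87.7 and replicate 3 gave 147. A second promoter summit had 149.5, and introns of eIF5B held 4 more optimal summits, of signal 131, 121, 153 and 301, between 9977 and 21974 bp from its TSS. For those of 131, 121 and 153 the nearest TSS was that of sty, 13694 to 17292 bp away. Only for that of 301 was it a TSS of eIF5B.

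eIF1, which guards the choice of the start codon, had a signal of 171 at position 3223267 of 3L, 74 bp upstream of its TSS. The same summit was 307 bp from the TSS of RpL28, a ribosomal protein gene transcribed the other way. Library summits within 100 bp had 64.6 in replicate 1 and 102 in replicate 3; the largest overlapping peaks, with summits 206 and 233 bp away, had 77.8 and 212. The 2 matches thus give the same order of the libraries with different gaps.

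eIF5, which triggers GTP hydrolysis on eIF2, had a relaxed pooled peak of 58.9, 447 bp upstream of a TSS. The divergent gene exd has a TSS 494 bp from one of eIF5, and CG46312 shares a TSS with eIF5. That peak is therefore not particular to eIF5. eIF1A, which works with eIF1 in scanning, had no pooled peak.

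The 3 subunits of eIF2 differed in their calls. eIF2beta was bound with 132 at position 12527050 of 3L, 319 bp upstream of its TSS, with 55.4 in replicate 1 and 81.3 in replicate 3. No other protein-coding TSS lay within 1000 bp of its own. eIF2alpha, the subunit whose phosphorylation lowers initiation under stress, had a relaxed pooled peak of 22, close to the lowest pooled signal of 20.6. eIF2gamma, the GTP-binding subunit, which shares a TSS with Su(var)3-9, had no pooled peak, and its nearest optimal summit was 11892 bp away.

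None of the 5 subunits of the exchange factor eIF2B was bound. By the exact interval this count of 0 allows a share of up to 52.2%, which takes in the 21.9% of all genes. eIF2Bbeta had a relaxed pooled peak of 62.4, 41 bp downstream of its TSS, with 46.6 in replicate 3 and no peak in replicate 1. A strong optimal peak of signal 1952, at the divergent gene Ugalt, lay 676 bp from eIF2Bbeta and outside its window. eIF2Balpha, eIF2Bgamma, eIF2Bdelta and eIF2Bepsilon had no pooled peak, although 3 of these 4 have a divergent partner; eIF2Bgamma is the one that does not.

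eIF3, the largest factor, gave 3 bound genes of 16, or 18.8%. eIF3c, a core subunit, had a signal of 600.5, rank 299, with the summit at position 17665584 of 2R, 94 bp upstream of its TSS. Replicate 1 gave 262 and replicate 3 gave 339. A second summit of 314 lay 27 bp downstream of its TSS, in its 5′ untranslated region. This was the highest replicate 1 value of all bound eIF genes.

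eIF3m had a signal of 397, rank 724, with the summit at position 14164834 of 2R, 9 bp upstream of its TSS, and 144 in replicate 1 and 258 in replicate 3. The divergent gene CG8323 had its TSS 217 bp from that summit. eIF3l had 222 at position 12146448 of 3L, but 351 bp upstream of its TSS and only 71 bp from that of the divergent gene Nrx-IV (neurexin IV). Its library summits within 100 bp had 99 in replicate 1 and 113 in replicate 3. All 3 bound eIF3 genes have a divergent partner, and so do 5 of the 13 unbound ones. That is 3 of 8 eIF3 genes with a partner (37.5%), against 36.3% of all genes with a partner, and 0 of 8 without, against 13.8% of all genes without, so neither count is a result about eIF3.

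The other 13 eIF3 genes had no peak in the pooled list, not even at its relaxed threshold. They were eIF3a, eIF3b, eIF3d1, eIF3d2, eIF3e, eIF3f1, eIF3f2, eIF3g1, eIF3g2, eIF3h, eIF3i, eIF3j and eIF3k. Of the 27 eIF genes with no pooled peak, eIF3h was the only one with a library peak within 500 bp of a TSS. Replicate 3 alone listed a peak of signal 147 (rank 2756 in its list) 17 bp from a TSS of eIF3h, and another of 128, while neither replicate 1 nor the pooled list had a peak there. The divergent gene senju has a TSS 63 bp from one of eIF3h. eIF3g1 had the nearest optimal summit, 1368 bp away with a signal of 441, close to Smyd3.

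Outside these complexes, eIF6 had the highest signal of the family. eIF6 keeps the large ribosomal subunit from joining too early. Its signal was 715, rank 164 of 3058, with the summit at position 23850398 of 2R, 97 bp upstream of its TSS and within an intron of ytr, whose own TSS is 772 bp from that of eIF6. Replicate 1 gave 146 and replicate 3 gave 549.5, so its ratio of 3.77 was the widest between the libraries among bound eIF genes. eIF2A, an alternative carrier of the initiator tRNA, was bound with 129 at position 21824819 of 3L, 79 bp downstream of its TSS. It was the bound eIF gene found in 1 library only, with 68.8 in replicate 3 and no peak in replicate 1. eIF2D, another alternative carrier, had no pooled peak.

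Of the 10 higher-numbered paralogues, eIF3d2, eIF3f2, eIF3g2, eIF4E3 to eIF4E7, eIF4G2 and eIF4H2, none had a pooled peak, where 21.9% of all genes had an optimal peak and 38.5% any pooled one. The 7 genes set beside them were the first copies and eIF4EHP. The latter was placed there by choice, and could as well be counted with the further eIF4E genes. Of these 7, eIF4EHP and eIF4G1 were bound, and eIF4E1 and eIF4H1 had a relaxed pooled peak. eIF3d1, eIF3f1 and eIF3g1 had none, so the 3 eIF3 pairs did not differ in their calls. These are few genes, and no test was made. The 27 eIF genes with no pooled peak lay 1368 to 79985 bp from the nearest optimal summit, with a median of 17174 bp; 4 of them were within 5000 bp.

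Most of the bound eIF genes were listed in both libraries. A peak overlapping the optimal one was listed by both for 11 of 12 bound eIF genes (91.7%), against 2931 of 3058 bound genes (95.8%). Replicate 3 had the higher value in 10 of those 11, and in 90.4% of all bound genes with a value in both. The median ratio of replicate 3 to replicate 1 was 1.8 at eIF genes and 1.69 at all bound genes; these ratios describe the lists, whose scaling is not stated. The largest library peak overlapping the optimal one was also ranked in its own list, wherever its summit lay. It was among the 6636 highest in both libraries for 10 of the 12 bound eIF genes and for 2511 of all 3058 bound genes. For eIF2A and eIF4B this held in replicate 3 alone, as it did for 265 of all bound genes.

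**Figure D2:**
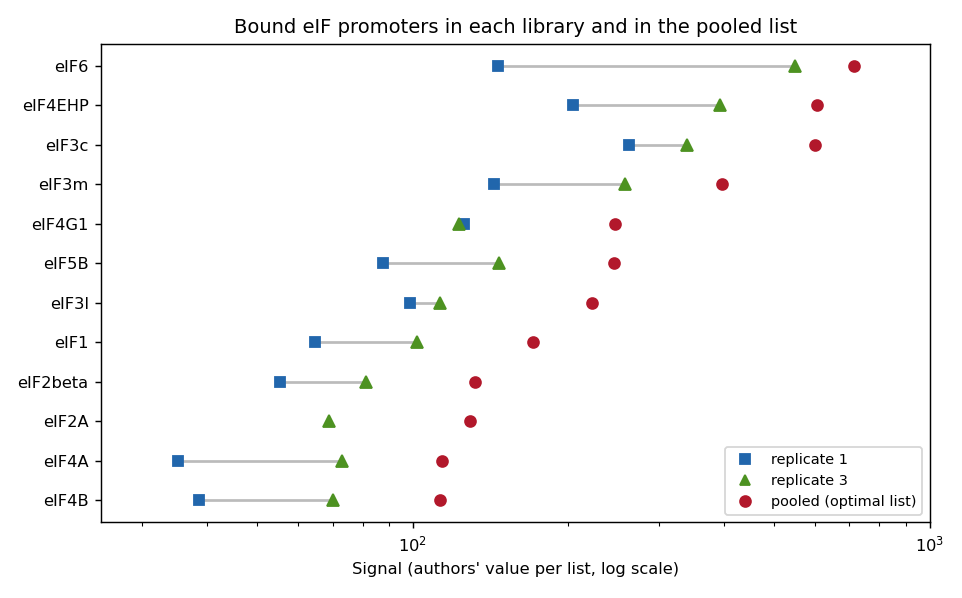
Signal of the 12 bound eIF genes in replicate 1 (squares), replicate 3 (triangles) and the pooled optimal list (circles), on a log axis, with library peaks taken within 100 bp of the pooled summit. Replicate 3 lies above replicate 1 in all but eIF4G1, eIF6 shows the widest gap, and eIF2A has no peak in replicate 1.

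Most summits lay just before the TSS. At 11 of 12 bound eIF genes (91.7%) the summit was upstream of the nearest TSS of the gene, against 88.9% of all bound genes. It was within 100 bp of that TSS in 9 of 12 (75%), against 35.6%, and the median position was −82 bp at eIF genes and −128 bp at all bound genes. The 3 exceptions were eIF4A, eIF3l and eIF2beta, and in eIF4A and eIF3l another gene's TSS was nearer to the summit. A summit also within 500 bp of another gene's TSS was found in 5 of 12 bound eIF genes (41.7%), against 52.4% of all bound genes. More than 1 promoter summit was seen in 5 of 12 (41.7%), against 25.7%. These are counts over few genes, given without a test.

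**Figure D3:**
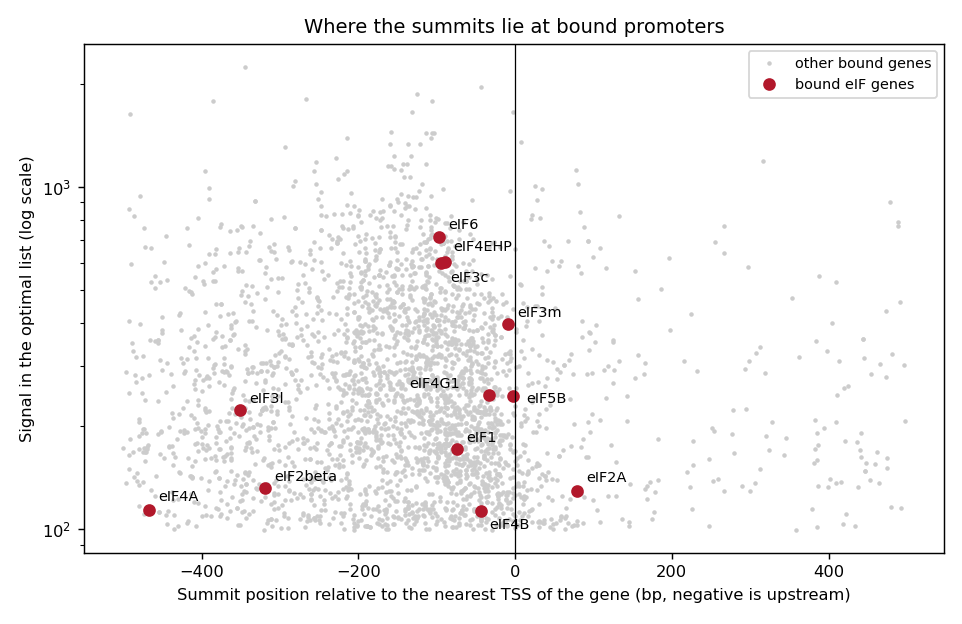
Position of the highest optimal summit relative to the gene's nearest TSS (x axis, bp, negative upstream) and its signal (y axis, log scale) for the 12 bound eIF genes, labelled, and for the other bound genes in grey. Of the 12, 9 lie within 100 bp of the TSS, and eIF4A, eIF3l and eIF2beta lie 319 to 467 bp upstream.

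Neighbouring genes were considered because a summit between 2 divergent promoters counts for both. Of the 21 eIF genes with a divergent partner within 1000 bp, 7 (33.3%) were bound, against 36.3% of all genes with such a partner. Of the 21 eIF genes with no other protein-coding TSS within 1000 bp, 4 (19%) were bound, against 13.8% of all such genes. These 4 were eIF2beta, eIF2A, eIF4B and eIF4G1. Both shares are close to their backgrounds. By arm, 6 of 11 eIF genes were bound on 3L, against 22.5% of all its genes, 3 of 9 on 2R, against 19.6%, and 1 of 3 on 2L, against 20.7%. On 3R 1 of 13 eIF genes was bound, against 22.2% of all its genes, and on X 0 of 7, against 24.2%.

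Other lists of translation genes were set beside the eIF genes. Of 20 regulators and partners of initiation, 10 (50%) were bound, against 21.9% of all genes, with a median signal of 294. The highest was larp, whose product binds mRNAs of the translation machinery, with 2238, the highest value of any bound gene. pAbp, the poly(A)-binding protein, had 905, and Gyf, a partner of eIF4EHP, had 429. PPP1R15, which directs the removal of phosphate from eIF2alpha, had 347, and crc, the fly ATF4, had 305. Thor, the inhibitor of eIF4E1, had 156, whereas eIF4E1 itself was not bound. The remaining bound ones, MCTS1, mxt, pix and NAT1, ran from 155 to 282. The highest summits of larp, MCTS1 and pAbp stood far from the nearest TSS of their own gene, at −344, −467 and 479 bp. Those of the other bound regulators stood between −203 and −11 bp. Whether a TSS of another gene lay nearer to these summits was not examined. This list was not counted again with a window of 250 bp. PEK, Lk6 and bel had relaxed pooled peaks only, of 93.5, 80.2 and 40.9, and Paip2, raptor, S6k, cup, Gcn2, mTor and DENR had none.

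The shares that follow stand beside the 21.9% of all genes. Of 12 elongation and release factors, 9 (75%) were bound, with a median of 274 and a highest value of 404 at eEF1alpha1. Of 88 cytoplasmic ribosomal protein genes, 51 (58%) were bound, with a median of 198. Of 33 tRNA synthetase genes, 9 (27.3%) were bound, the same share as among eIF genes. The exact interval of the eIF share, 15% to 42.8%, does not reach that of the ribosomal protein genes, 47% to 68.4%. These intervals cover counting over genes only, and no test was made. The lists were chosen with earlier results of these data known, so nothing is concluded from the gap.

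**Figure D4:**
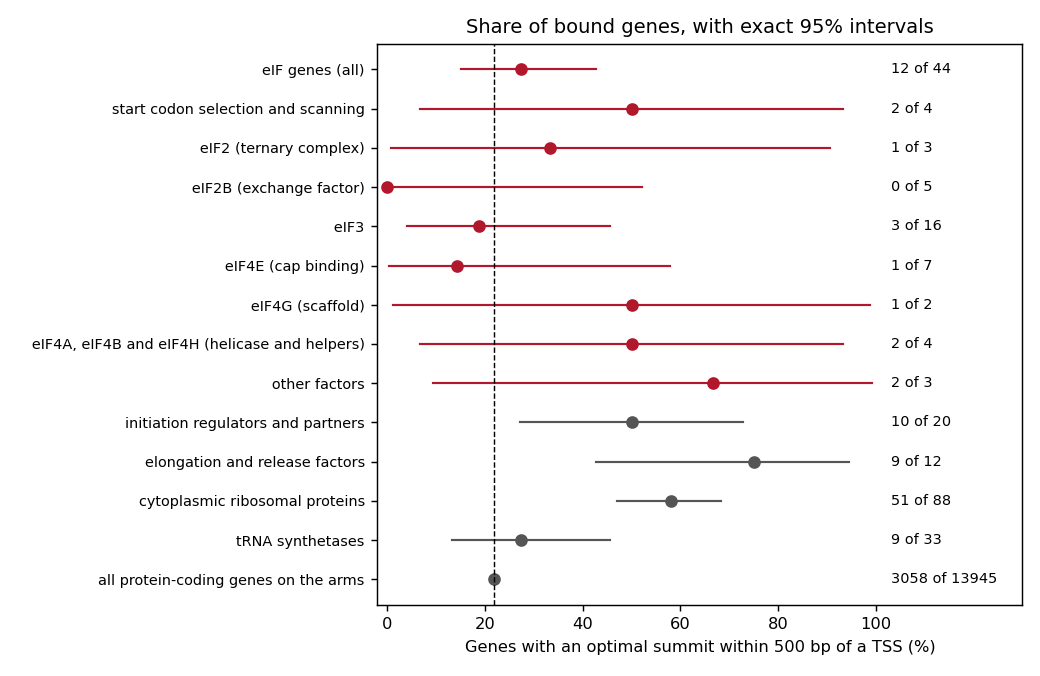
Share of genes with an optimal summit within 500 bp of a TSS, in percent, for the eIF genes, their factor groups (red) and other gene lists (grey); lines are exact 95% binomial intervals, and the dashed line is the 21.9% of all genes. The interval of the 44 eIF genes spans the dashed line. Those of the initiation regulators, of the elongation and release factors and of the ribosomal proteins lie above it. The lists were chosen with earlier results of these data known, so the intervals are no test.

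The sequence of the promoters, which the choice of genes did not use, was searched for 8 core promoter and factor motifs. The DNA replication-related element (DRE), the site of the factor Dref, was searched as TATCGATA from 250 bp before to 50 bp after the TSS, on both strands, which for this palindrome are the same. It was present in 12 of 44 eIF promoters (27.3%), against 9.01% of all promoters and 28.4% of those of ribosomal proteins. It stood in 5 of 12 bound eIF promoters (41.7%), those of eIF6, eIF3c, eIF3l, eIF4A and eIF4B, and in 7 of 32 unbound ones (21.9%). Among all bound genes the share was 13.5%. From the other side, 5 of 12 eIF genes with a DRE (41.7%) and 7 of 32 without (21.9%) were bound, against 32.9% and 20.8% over all genes. Nothing is drawn from these counts about Dref.

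The 100 bases before the TSS (dm6, RefSeq, on the gene's strand) are printed for promoters chosen because each holds a DRE. Their likeness in this respect is therefore no result. Capitals mark the DRE and, in eIF2alpha, also the motif 1 core GGTCACAC, which reads there on the other strand. The first 3 genes were bound, eIF2alpha had a relaxed pooled peak, and the last 2 had none.
eIF4A (chr2L:5981664-5981763, plus strand): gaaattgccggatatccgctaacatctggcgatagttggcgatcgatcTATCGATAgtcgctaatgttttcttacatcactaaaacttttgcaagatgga
eIF3l (chr3L:12146098-12146197, minus strand): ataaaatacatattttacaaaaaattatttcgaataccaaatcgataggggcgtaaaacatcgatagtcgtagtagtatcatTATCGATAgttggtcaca
eIF4B (chr3L:27858272-27858371, minus strand): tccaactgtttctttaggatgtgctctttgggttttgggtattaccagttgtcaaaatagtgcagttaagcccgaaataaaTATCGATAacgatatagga
eIF2alpha (chrX:16446994-16447093, minus strand): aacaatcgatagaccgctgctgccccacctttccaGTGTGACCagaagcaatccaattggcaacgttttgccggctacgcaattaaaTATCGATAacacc
eIF2gamma (chr3R:15263459-15263558, minus strand): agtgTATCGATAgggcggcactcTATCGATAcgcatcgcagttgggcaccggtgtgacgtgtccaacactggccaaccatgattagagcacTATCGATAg
eIF3f1 (chr3R:4714183-4714282, minus strand): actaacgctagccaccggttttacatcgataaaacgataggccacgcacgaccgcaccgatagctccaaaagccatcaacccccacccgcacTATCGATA
eIF2gamma holds 3 matches, at −96, −77 and −9, the most of any eIF promoter, and had no pooled peak.

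In eIF4A and eIF3l the DRE stood at −52 and −18, while the summits stood at −467 and −351, nearer to the partner gene. In eIF4B and eIF6 the DRE, at −19 and −11, was 25 and 86 bp from the summit, and in eIF3c, at −220, it was on the far side of the summit at −94. The summits therefore did not keep a fixed distance from the element.

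**Figure D5:**
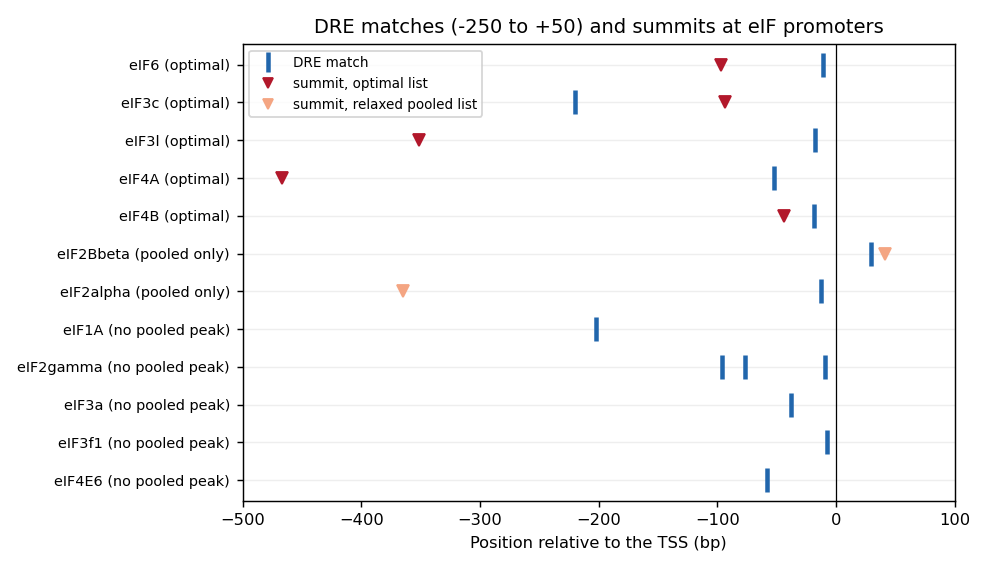
Positions relative to the TSS (bp) of DRE matches (blue ticks, searched from −250 to +50) and of summits (triangles) in the 12 eIF promoters that hold a DRE. The ticks fall between −220 and +29, and 5 of the 12 promoters have no pooled peak.

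The motif 1 core GGTCACAC, also common at housekeeping promoters, was found in 7 of 44 eIF promoters (15.9%), against 7.42% of all. They were those of eIF5B, eIF3l and eIF2beta among the bound genes and of eIF3i, eIF3k, eIF2Bepsilon and eIF2alpha among the unbound ones. All motifs were counted anywhere from 250 bp before to 50 bp after the TSS, on either strand. The initiator letters TCAGTT were found in 4 of 44 (9.09%), against 26.5% of all. Those matches began at −180, −164, −44 and −28, so none was at the TSS, and the count is not one of placed initiators. The E-box CAGCTG was found in 4 of 44 (9.09%), against 18%. No bound eIF promoter held CAGCTG, although 21.7% of all bound promoters did. The TATA box letters TATAAA, likewise at any position of the window, were at 43.2% in eIF promoters and 45.6% in all. The Myc-type E-box CACGTG stood at 6.82% and 4.2%, and the GAGA element GAGAGAG at 2.27% and 6.49%. The cyclic AMP response element TGACGTCA was found in 0 of 44 eIF promoters and in 0.437% of all.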

How the data were processed

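The 2 chromatin libraries of 1 group were analysed through lists of peaks in narrowPeak format on dm6. Per the text deposited with each library, peaks were called against a control alignment, relaxed lists were made per library and for the pooled alignments, and the optimal list follows a reproducibility threshold. The signal and the −log10 q of each peak are the authors' deposited values; q was capped at 3.94 in the pooled list and was used only to describe peaks. For the aligner and the caller, no name or version is given in the sources used here. Lists on dm3 were not used, no control library was analysed here, and depth is unknown.

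Bound genes had an optimal summit 500 bp or less from the TSS of any protein-coding transcript (Ensembl release 115, BDGP 6.54); a gene's value is the highest such signal, or else the highest in the relaxed pooled list. A library's value is its highest peak overlapping the pooled peak by 1 bp or more; where its summit was over 100 bp away, the value within 100 bp is also given. A divergent partner is an opposite-strand gene pointing away with a TSS within 1000 bp. Motifs were sought in RefSeq dm6 sequence at the TSS nearest the optimal summit, or else nearest the relaxed pooled summit. In genes with no pooled peak the 5′-most TSS was used. All 44 members were named, with genes that share a summit; of 21 regulators sought, 20 were matched. The members and lists were chosen with earlier results of these data known. No test was made, and coordinates are 1-based. The caller of genes was tested on simulated summits. Python packages were numpy 2.4.6, pandas 2.3.3, scipy 1.17.1 and matplotlib 3.10.9.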

Additional observations from a re-analysis of the deposited data

How the results depend on the processing

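The number of bound eIF genes was 9 (20.5%, against 18.1% of all genes) with a window of 250 bp, 13 (29.5%, against 25%) with 1000 bp, 13 (29.5%, against 23.4%) by overlap of intervals and 12 (27.3%, against 19.8%) with the 5′-most TSS alone. It was 17 (38.6%) with the relaxed pooled list, against 5369 (38.5%) of all genes; as reported it was 12 (27.3%, against 21.9%). It was 7 (15.9%) with the 3318 optimal peaks of highest signal, which lost eIF4A, eIF4B, eIF1, eIF2beta and eIF2A, and 4 (19%) when 21 eIF genes without another TSS within 1000 bp were kept. The corresponding counts over all genes were 1985 (14.2%) and 1095 (13.8%). With the highest peaks of a single library, the count ran from 11 to 13 for eIF genes (25% to 29.5%) and from 3045 to 3295 for all genes (21.8% to 23.6%); without replicate 1 eIF3h was gained, and without replicate 3 eIF2A and eIF4B were lost and eIF4H1 was gained. Over the main setting and 7 alternatives (the restricted gene set and the relaxed list left out), eIF3m, eIF3c, eIF6, eIF5B, eIF4EHP and eIF4G1 were bound in all 8, and 29 eIF genes in none. The same count was not made over all protein-coding genes, so it describes single genes and not the family. The window of 250 bp lost eIF4A, eIF3l and eIF2beta. The median signal of bound eIF genes was 131 among genes without another TSS within 1000 bp, which leaves 4 genes. The median ratio of replicate 3 to replicate 1 was 1.67 with summits within 100 bp. DRE was found in 10 eIF promoters (22.7%, against 7.89% of all) with the search started 150 bp before the TSS. The initiator letters were then found in 2 (4.55%), against 21.3% of all. No paired analysis was possible because there is 1 group.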
